A study of Homo sapiens with 6 samples.

Results

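The alpha-2-macroglobulin family was examined in COV434 cells, an established cell line that the study treats as a model of the hypercalcemic type of small cell ovarian carcinoma (SCCOHT), after reexpression of BRG1. BRG1 is the product of SMARCA4 and drives nucleosome movement as a catalytic subunit of SWI/SNF. The family was taken as 5 genes by symbol, A2M, A2ML1, PZP, CD109 and CPAMD8, and all 5 were found among the 19899 genes of the table. It was put forward because of the BRG1-against-Control differences seen in these same samples, PZP among them. The changes of the 5 genes in that comparison are therefore given as a description, without p-values, and no statement rests on how many of them passed a test.

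Control cells (n = 3) received pCDNA3-neo and BRG1 cells (n = 3) received PBJ5-BRG1, each together with pBABE-puro at plasmid ratios from 6.25 to 10 against 1. Cells of both groups were grown in RPMI-1640 with serum, were put on puromycin at 2 to 3 µg/ml 24 hours after transfection and were collected after 3 days. Transfection was transient and selected pools of cells were sequenced, so each value averages over cells that can differ in plasmid dose. The depth ran from 29699741 to 63613710 estimated counts per sample, and BRG1 replicate 3 was the shallowest. SMARCA4, including plasmid transcripts, had 1439 to 1675 normalised counts in Control and 78589 to 108655 in BRG1 samples. A normalised count is an estimated count divided by the size factor of its sample.

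Proteins of this family are large and have a reactive thioester bond. A2M, a secreted tetramer, traps proteases of all catalytic classes: the protease cuts a bait region, the molecule closes around it, and the complex is cleared through the receptor LRP1. PZP (pregnancy zone protein) is the closest relative of A2M and rises in plasma during pregnancy, A2ML1 is a monomeric inhibitor secreted in the upper layers of stratified epithelium, CD109 is held at the cell surface by a lipid anchor and binds TGF-beta, and CPAMD8 has a Kazal domain and is linked to eye development.

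The thioester is shown first because it is what the 5 genes share outside their expression. The Cys-Gly-Glu-Gln sequence that carries it was looked for in the coding sequence of each canonical GENCODE transcript, and it was found exactly 1 time in each of the 5. The lines below give 30 coding bases, 5′ to 3′ on the strand of the gene, with the 4 codons of the motif in capitals (hg38).
A2M (chr12:9079736-9079765, minus strand, exon 24): ccctatggcTGTGGAGAGCAGaatatggtc
PZP (chr12:9160411-9160440, minus strand, exon 24): ccatatggcTGTGGAGAACAGaacatggtc
A2ML1 (chr12:8857214-8857243, plus strand, exon 24): cccagtggcTGTGGCGAGCAGaacatggtc
CD109 (chr6:73792676-73792705, plus strand, exon 23): ccttatggcTGTGGTGAACAGaacatgata
CPAMD8 (chr19:16925293-16925322, minus strand, exon 26): ccgtttggcTGTGGAGAGCAGaacatgatc
The motif began at codon 972 of 1474 in A2M, 978 of 1482 in PZP, 970 of 1454 in A2ML1, 921 of 1445 in CD109 and 1144 of 1885 in CPAMD8. A2M and CPAMD8 used the same codons for it, and the other 3 genes differed from them in the codons for glycine or glutamate.

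Aligned end to end, the coding sequences of A2M and PZP were identical at 80.2% of 4392 aligned bases, whereas every other pair lay between 62.1% and 65.1%. This bears on how reads are assigned. Over all GENCODE transcripts of each gene, 23 of the 6622 distinct PZP windows of 78 bases (1 read length) also occurred in A2M, and no other pair of the family shared a window (0 shared). The longest run of bases common to the canonical A2M and PZP transcripts was 100, and that of any other pair was at most 21. Reads within those windows cannot be placed on A2M or PZP by their sequence alone.

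A2M (ENSG00000175899.15), PZP (ENSG00000126838.10) and A2ML1 (ENSG00000166535.20) form a cluster of 385775 bases on chromosome 12 (GENCODE release 44, hg38). A2ML1 runs from 8822621 to 8887001 on the plus strand, A2M from 9067664 to 9116229 and PZP from 9148840 to 9208395, both on the minus strand. Each has 36 exons in its canonical transcript. CD109 (ENSG00000156535.15) lies on chromosome 6 from 73695785 to 73828316, with 33 exons, and CPAMD8 (ENSG00000160111.15) on chromosome 19 from 16892951 to 17026815, with 42 exons. The libraries do not keep strand, and the antisense RNA A2M-AS1 covers 8.88% of A2M exon bases. For CD109 the shared part was 3.07%, for CPAMD8 0.177%, and for A2ML1 and PZP it was 0.

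The genes were first ordered by level, per kb of canonical transcript, since counts of genes of different length cannot be compared directly. In Control, A2M had 7999 ± 2391 normalised counts per kb (SD, n = 3) and ranked 346 among 18214 genes with a length. PZP followed with 305 ± 80.7, CPAMD8 with 25.9 ± 3.73, A2ML1 with 19.5 ± 5.38 and CD109 with 0.547 ± 0.129 (SD, n = 3). The Control values of CPAMD8 and A2ML1 overlapped (23.2 to 30.1 against 13.4 to 23.5 per kb), and all other neighbours in this order stood apart.

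With BRG1 the order was kept. A2M had 4136 ± 368 normalised counts per kb (SD, n = 3), rank 712 of the 18214 genes, and PZP 125.9 ± 12.97. CPAMD8 had 26.7 ± 5.01, A2ML1 8.501 ± 5.917 and CD109 1.29 ± 0.561 (SD, n = 3). CPAMD8 and A2ML1, which overlapped in Control, no longer did (20.9 to 30.01 against 3.79 to 15.1 per kb). A2M alone made up between 95.1% and 96.5% of the family's estimated counts in every sample, so a sum over the family is in effect a measure of A2M.

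**Figure D1:**
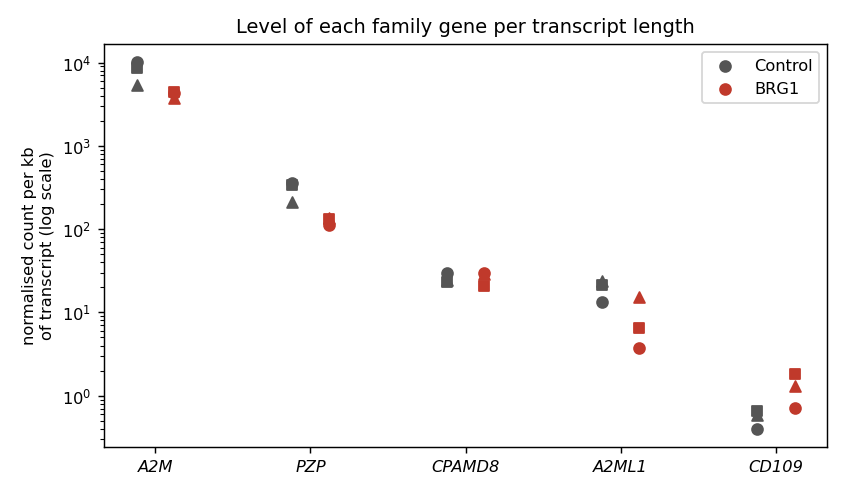
Normalised counts per kb of canonical transcript (log axis) of the 5 family genes in Control (grey) and BRG1 (red) samples. Each point is 1 sample, and circles, squares and triangles are replicates 1, 2 and 3. A2M lies above PZP in every sample, and CD109 lies lowest.

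A2M, the broad protease trap of plasma, fell with BRG1. Its normalised counts were 46476, 39307 and 24839 in Control replicates 1 to 3 and 19617, 20419 and 17166 in the BRG1 replicates. The groups did not overlap, and Control replicate 3 was closest to the BRG1 samples. The log2 fold change was -0.95 (SE 0.25). Within replicate numbers 1 to 3, BRG1 samples held 42.2%, 51.9% and 69.1% of the Control value. As the RNA comes from pools of cells, fewer cells with A2M and less A2M RNA per cell cannot be told apart.

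PZP, the plasma inhibitor most like A2M, fell further. Control replicates held 1681, 1573 and 986 normalised counts and BRG1 replicates 515, 608 and 628. These groups did not overlap either, and Control replicate 3 was again the lowest of its group. The log2 fold change was -1.28 (SE 0.24), and within replicate numbers BRG1 samples held 30.6%, 38.6% and 63.7% of Control. PZP counts amounted to 3.617%, 4.001% and 3.969% of A2M counts in the Control replicates and to 2.626%, 2.976% and 3.658% in the BRG1 replicates. The share was lower with BRG1 within each replicate number, while the ranges of the groups overlapped.

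A2ML1, the inhibitor of stratified epithelium, had lower values with BRG1 within each replicate number. It had 68.5, 110 and 121 normalised counts in Control and 19.4, 33.7 and 77.6 in BRG1 replicates. The groups overlapped through BRG1 replicate 3, which exceeded Control replicate 1. Its log2 fold change was -1.22 (SE 0.54), and within replicate numbers BRG1 samples held 28.4%, 30.6% and 64.4% of Control. DESeq2 called A2ML1 in the fit with the replicate number as a block and in the fit without BRG1 replicate 3 (log2 fold changes -1.36 and -1.90), but not in the fit without a block.

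CD109 and CPAMD8 had other patterns. CD109, the membrane-anchored TGF-beta binder, was barely present. Control replicates held 3.64, 5.88 and 5.32 normalised counts and BRG1 replicates 6.51, 16.6 and 11.9, which are 2.99 to 20 estimated counts per library. Although the groups did not overlap, the log2 fold change of 1.23 (SE 0.87) was not called. CPAMD8 had 180, 139 and 145 normalised counts in Control and 180, 125 and 174 in BRG1 replicates, giving a log2 fold change of 0.04 (SE 0.27). Its groups overlapped throughout.

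**Figure D2:**
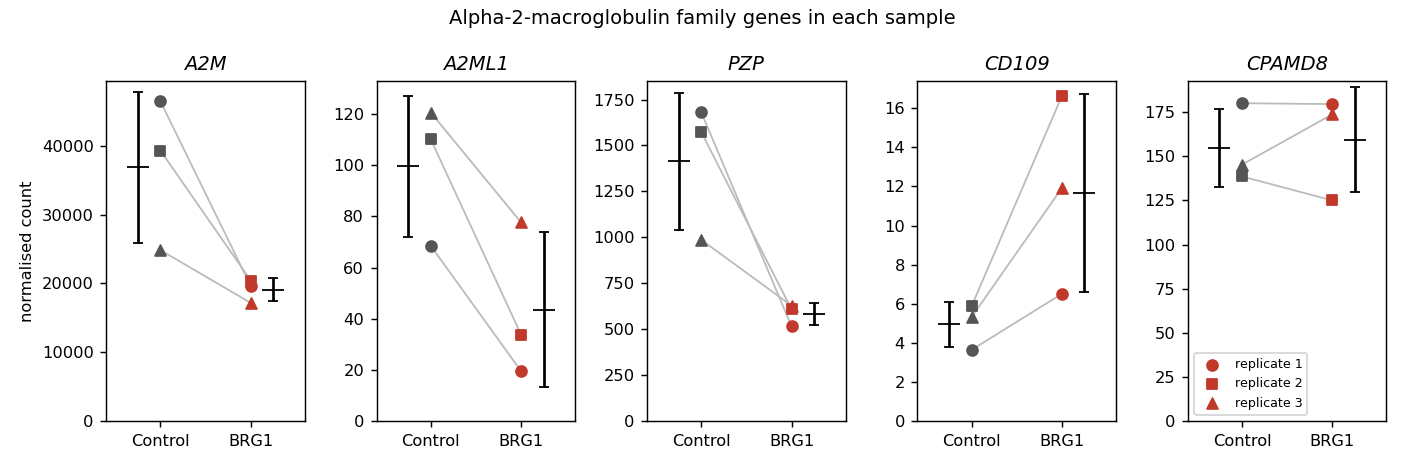
Normalised count of each family gene (vertical axes from 0, scaled per gene) in Control (grey) and BRG1 (red) samples. Marker shapes give replicate numbers 1 to 3, grey lines join samples of the same number, and the black bars beside the points are mean ± SD (n = 3). The 3 lines of A2M, PZP and A2ML1 each run downward, those of CD109 upward, and those of CPAMD8 in differing directions.

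Over all genes, DESeq2 (adjusted p under 0.05) called 12.9% of the 15991 genes with an adjusted p, 1.84% lower and 11.0% higher. Of the 5 family genes it called 2 lower, A2M and PZP, and 0 higher (3 lower and 0 higher at an unadjusted p under 0.05). The same 2 lower and 0 higher came from edgeR, with 1.02% lower and 9.57% higher over all genes, and from limma-voom. With the replicate block the lower calls were A2M, PZP and A2ML1 under both tools, when 6.62% (DESeq2) and 5.68% (edgeR) of all genes were called lower. Nothing is read from these counts, because the family was chosen on this comparison. Of all 18122 genes with a count, 8.81% did not overlap between groups with BRG1 lower, 15.5% did so with BRG1 higher, and 24.4% were lower within all 3 replicate numbers. Among the 294 genes called lower, whose median log2 fold change was -0.50, 5 had a more negative log2 fold change than PZP and 11 one more negative than A2M, and 64 had a larger mean count than A2M. In the 6 fits that left out a sample, A2M and PZP stayed called. Their log2 fold changes ran from -1.17 to -0.75 for A2M and from -1.48 to -1.13 for PZP. These fits, and the ranks among called genes, reuse the values on which the family was chosen, and nothing is read from them either.

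The genes around the cluster were compared next, to see which of them moved with it. Of 11 other genes of the table within 500 kb, 7 had an adjusted p, and DESeq2, edgeR and limma-voom each called 1 higher and 0 lower (DESeq2 had 1 lower, CLEC2D, at an unadjusted p under 0.05). That gene was MFAP5 (8637346 to 8662888), which encodes a microfibril protein. It had 415, 418 and 474 normalised counts in Control and 12739, 6018 and 2963 in BRG1 replicates, so that it was 4.06 higher on the log2 scale (SE 0.43, DESeq2 adjusted p 3.0e-19, edgeR adjusted p 0.00151). MFAP5 is upstream of A2ML1, whose log2 fold change had the opposite sign.

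The genes lying between A2ML1 and A2M were not called. PHC1, a Polycomb gene, had 3132 to 3525 normalised counts in Control and 2699 to 3194 in BRG1 samples (log2 fold change -0.16, DESeq2 adjusted p 0.603). M6PR, the mannose-6-phosphate receptor gene, had 5388 to 5509 and 5296 to 5854 (log2 fold change 0.03, DESeq2 adjusted p 0.937). KLRG1, a lymphocyte receptor gene that lies closest to A2M, had 21.0 to 50.9 and 12.1 to 25.3, or -0.95 on the log2 scale (SE 0.57, DESeq2 adjusted p 0.363). Within replicate numbers 1 to 3, BRG1 samples held 44.4%, 57.9% and 58.2% of the Control value of KLRG1. For PHC1 they held 90.6%, 86.2% and 90.7%, and for M6PR 102.6%, 98.3% and 106.3%. M6PR and PHC1 overlap each other (30.9% of M6PR exon bases), so their values are uncertain. In the vicinity of CD109, 1 of 4 tested genes was called, EEF1A1 (log2 fold change -0.63, DESeq2 adjusted p 8.3e-05), and around CPAMD8, 1 of 27, the interferon-inducible gene BST2 (log2 fold change 9.58, DESeq2 adjusted p 4.3e-42). DESeq2 called 12.9% of all tested genes.

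**Figure D3:**
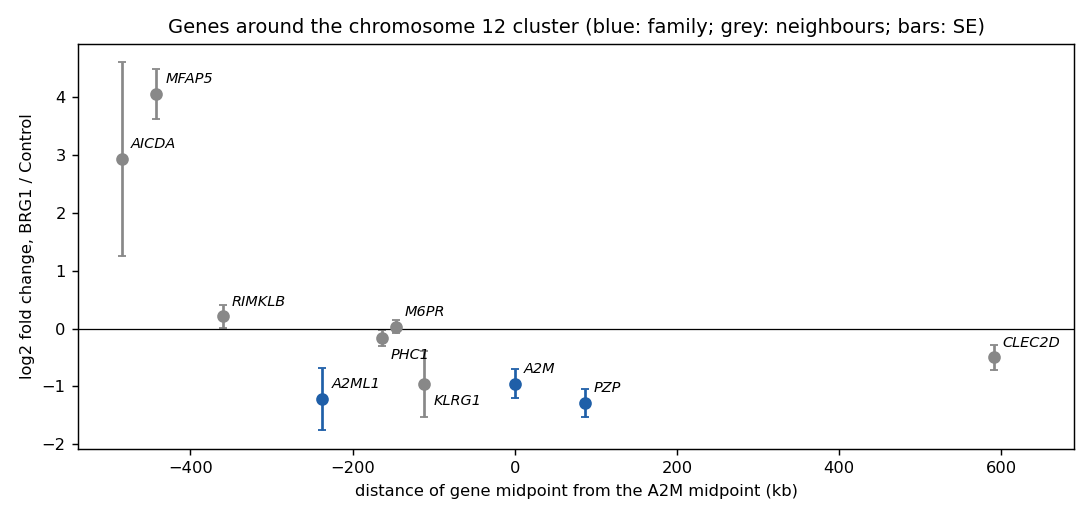
Log2 fold change of BRG1 over Control (bars, SE from DESeq2) against the distance in kb of each gene's midpoint from that of A2M, for the 3 family genes of chromosome 12 (blue) and the 7 neighbours with an adjusted p (grey). The family genes lie between -1.28 and -0.95, KLRG1 lies at -0.95, PHC1 and M6PR lie near 0, and MFAP5 lies at 4.06.

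Promoter sequence was read for the members of the cluster. RefSeq start sites (GRCh38.p14) were given for 4 of the 5 genes, A2M being the gene without an entry, and A2ML1 and CPAMD8 had 2 each. The 250 bases before the start are shown for PZP and for the upstream start of A2ML1, 5′ to 3′ on the strand of the gene, with any TATAAA in capitals.
PZP (chr12:9208396-9208645, minus strand): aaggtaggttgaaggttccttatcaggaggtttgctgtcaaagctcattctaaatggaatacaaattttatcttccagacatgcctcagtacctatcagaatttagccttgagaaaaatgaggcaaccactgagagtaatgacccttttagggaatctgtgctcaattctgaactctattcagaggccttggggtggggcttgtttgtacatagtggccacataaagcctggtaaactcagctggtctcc
A2ML1 (chr12:8822371-8822620, plus strand): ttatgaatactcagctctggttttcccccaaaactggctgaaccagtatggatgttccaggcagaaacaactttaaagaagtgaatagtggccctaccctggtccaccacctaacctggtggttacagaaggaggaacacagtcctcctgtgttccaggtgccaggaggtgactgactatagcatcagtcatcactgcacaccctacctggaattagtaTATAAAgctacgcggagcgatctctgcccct
The AP-1 motif TGACTCA, chosen because AP-1 is a factor the study considers, was searched on both strands and matched 0 of the 6 family windows, against 4.2% of 35116 windows of the same length over all genes. The CRE motif TGACGTCA (1.65% of windows) and the STAT motif TTCNNNGAA (6.57%) also had 0 matches, the searched motifs not overlapping in any family window. TATAAA was found 1 time, in the upstream A2ML1 window, starting 31 bases before the start site, and was present in 10.7% of all windows. The PZP window held 0 CpG and 43.2% G+C, and the A2ML1 window 3 CpG and 49.2% G+C, where the medians of all windows were 11 CpG and 58.0%. These letters describe short windows only, and say nothing of enhancers or of factor binding.

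Relatives of the family among complement and ovostatin genes were then compared. C3, the central complement component, rose from 7.80, 9.58 and 13.2 normalised counts in Control to 1921, 938 and 303 in BRG1 replicates (log2 fold change 6.72, SE 0.60, DESeq2 adjusted p 6.7e-27, edgeR adjusted p 0.00110). C4A and C4B, the complement C4 genes, rose by 2.01 and 1.95 on the log2 scale (DESeq2 adjusted p 1.0e-10 and 7.4e-10), but they are near-identical copies and how reads were divided between them is uncertain. C5 had 228 to 460 normalised counts in Control and 135 to 352 in BRG1 samples, a difference of -0.54 on the log2 scale (DESeq2 adjusted p 0.536). OVOS2, an ovostatin gene, had at most 20.3 normalised counts in any sample. Of the 5 relatives in the table, 3 were called higher and 0 lower by DESeq2, edgeR and limma-voom (DESeq2 had 0 lower at an unadjusted p under 0.05 too), with a median log2 fold change of 1.95, where the median of all tested genes was -0.01. Over all tested genes, DESeq2 called 11.0% higher and 1.84% lower. With so few lower calls over all genes, 0 lower in this or a following short list is not read as a result.

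The receptors and binding partners of the family were mostly at similar levels in both groups. LRP1, which takes up A2M-protease complexes, had 14583 to 16470 normalised counts in Control and 13192 to 16963 in BRG1 samples (log2 fold change -0.12, DESeq2 adjusted p 0.802). Its chaperone LRPAP1 (0.05, adjusted p 0.882) and HSPA5, which encodes the chaperone GRP78 that A2M binds at the cell surface (0.11, adjusted p 0.849), were not called by DESeq2 either. Among genes tied to CD109, TGFBR2, a TGF-beta receptor, rose from 278, 369 and 296 to 1160, 1138 and 625 normalised counts (log2 fold change 1.64, SE 0.28, DESeq2 adjusted p 1.7e-07, edgeR adjusted p 0.00583). EGFR rose by 2.39 on the log2 scale (DESeq2 adjusted p 1.1e-05) and TGFB2 by 3.26 from 0 to 4.12 normalised counts in Control (DESeq2 adjusted p 0.0186, edgeR adjusted p 0.0296). The TGFB2 call held in only 1 of the 6 fits that left out a sample, the one without Control replicate 3. Exons of other genes cover 34.2% of those of TGFB2. TGFBR1, TGFB1, TGFB3 and IL6ST were not called by DESeq2 (adjusted p from 0.338 to 0.973). In all, 3 of 10 genes were called higher and 0 lower by DESeq2, edgeR and limma-voom (DESeq2 had 0 lower also at an unadjusted p under 0.05), with 2 higher, TGFBR2 and EGFR, in the 5 fits that lost TGFB2, the median log2 fold change being 0.15. The DESeq2 shares over all tested genes were 11.0% higher and 1.84% lower.

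Among 22 proteases that A2M or its relatives are known to bind, 15 had an adjusted p, and DESeq2, edgeR and limma-voom each called 7 higher and 0 lower (9 and 0 by DESeq2 at an unadjusted p under 0.05). Of all tested genes, DESeq2 called 11.0% higher and 1.84% lower. MMP2, a gelatinase, rose from 30.9, 38.5 and 23.0 to 2225, 1570 and 1080 normalised counts (log2 fold change 5.75, SE 0.34, DESeq2 adjusted p 1.0e-60, edgeR adjusted p 0.000101). KLK5, an epidermal kallikrein, rose from 9.95, 3.61 and 9.35 to 2650, 1337 and 831 (log2 fold change 7.73, SE 0.52, DESeq2 adjusted p 2.1e-47). BMP1, a procollagen protease, rose by 2.89 on the log2 scale (DESeq2 adjusted p 5.0e-20), and PLAT, the tissue plasminogen activator, by 4.13 (adjusted p 5.9e-06). KLK7, whose Control libraries all held 3 counts or fewer, was at least 7.03-fold higher with BRG1, a bound against 3 counts per library (DESeq2 adjusted p 0.000746). CTSL, a lysosomal cathepsin, rose by 0.61 (DESeq2 adjusted p 0.000251). ADAMTS4, an aggrecanase, rose by 3.28 (DESeq2 adjusted p 0.0385), and this call was lost with the replicate block under DESeq2 (adjusted p 0.0680) and held with it under edgeR (adjusted p 0.0354). It held in 1 of the 6 fits that left out a sample, the one without Control replicate 2. CTSB, a lysosomal cathepsin like CTSL, had 8882 to 9587 normalised counts in Control and 11319 to 16164 in BRG1 samples, which did not overlap. Its log2 fold change of 0.50 was not called (DESeq2 adjusted p 0.0600) but passed with the replicate block (DESeq2 adjusted p 0.00367, edgeR adjusted p 0.0331) and without BRG1 replicate 3. PLAU, the urokinase gene, differed by 3.07 on the log2 scale (DESeq2 adjusted p 0.0933), and it was called only without Control replicate 1 among the 6 such fits. Of its exon bases, 31% are shared with another gene. MMP1, MMP3, MMP9 and ADAMTS5 were not called (DESeq2 adjusted p from 0.680 to 0.934). The median log2 fold change over the 20 proteases with any count was 1.21. It lies midway between KLKB1 (0.87) and KLK3 (1.54), which had 3 counts or fewer in every library and no adjusted p. It is therefore not a level for the 15 tested proteases.

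Genes of the acute-phase response and of IL6-STAT3 signaling were compared with A2M next. DESeq2 called 7 of 15 tested genes higher and 0 lower, and edgeR and limma-voom called 5 higher and 0 lower (8 and 1 by DESeq2 at an unadjusted p under 0.05). Its shares over all tested genes were 11.0% higher and 1.84% lower under DESeq2. SERPINA3, which encodes antichymotrypsin, rose from 7.31, 17.7 and 3.29 to 3442, 3755 and 2064 normalised counts (log2 fold change 8.45, SE 0.46, DESeq2 adjusted p 3.3e-74). Exons of other genes cover 31.7% of those of SERPINA3. SAA1, a serum amyloid A gene, had 0 counts in each Control library and 173, 67.9 and 23.1 normalised counts in BRG1 replicates, at least 27.9-fold higher against a floor of 3 counts per library (DESeq2 adjusted p 1.3e-08); its near copy SAA2 makes the division of reads uncertain. CRP, the C-reactive protein gene, was at least 14.6-fold higher on the same floor (DESeq2 adjusted p 7.8e-07). IL6 rose from 1.31, 7.51 and 3.25 normalised counts to 782, 117 and 29.8, with BRG1 replicate 1 far above the others. Its log2 fold change was 6.37 (SE 1.38, DESeq2 adjusted p 6.4e-05, edgeR adjusted p 0.0206). HP, the haptoglobin gene, was called by DESeq2 (adjusted p 0.0340), but not with the replicate block (DESeq2 adjusted p 0.0776), held in 1 of the 6 fits that left out a sample (without BRG1 replicate 3) and was left out of edgeR for its low counts. SERPINA1, the antitrypsin gene, was called by DESeq2 (adjusted p 0.0377, with the block 0.00202), by edgeR only with the block (adjusted p 0.0881 without, 0.0152 with), and in 2 of the 6 fits that left out a sample (without Control replicate 1 or BRG1 replicate 3).

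The fibrinogen chain gene FGG (log2 fold change -0.36) was not called (DESeq2 adjusted p 0.329). STAT3 and SOCS3, the signal transducer and its feedback inhibitor, had log2 fold changes of 0.37 and 0.77 (DESeq2 adjusted p 0.364 and 0.392). The replicate block called both (DESeq2 adjusted p 0.000163 and 1.1e-05, edgeR adjusted p 0.0201 and 0.00602). A2M had a negative log2 fold change in the samples where SERPINA3, SAA1, CRP and IL6 rose. The list did not rise as a whole. In the DESeq2 fit without a block, FGA (0.17), FGB (0.51), OSMR (0.25), IL6R (1.57) and LIFR (-0.39) were not called. ORM1 and HAMP had 3 counts or fewer in every library.

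**Figure D4:**
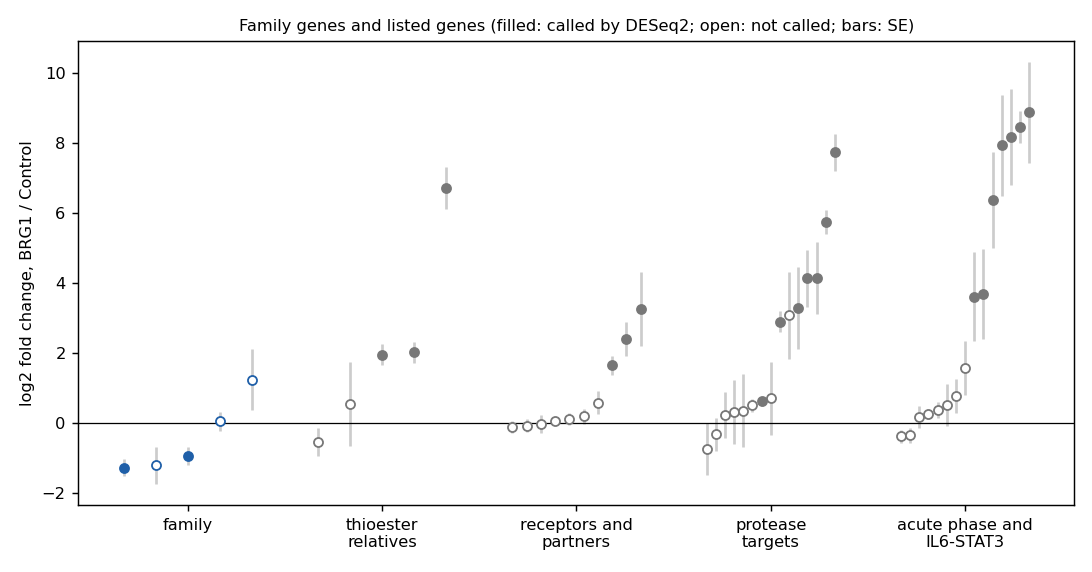
Log2 fold change of BRG1 over Control with its SE (DESeq2) for the 5 family genes (blue) and for the tested genes of 4 lists (grey), ordered by value within each list. Filled points are called at an adjusted p under 0.05 and open points are not. The called family genes lie below 0 and the called genes of the 4 lists lie above 0. Over all tested genes, 11.0% were called higher and 1.84% lower. The family was chosen on this comparison, so nothing is read from the difference in direction.

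Markers of other cell types were measured beside these results. An adjusted p was given to 12 of 14 stratified epithelium, 6 of 6 endothelial, 4 of 6 hepatocyte and 6 of 6 fibroblast markers. It was given to 4 of 6 leukocyte and 3 of 6 granulosa markers. Over all tested genes, 11.0% were called higher. Of 14 stratified epithelium markers, 8 were called higher, and their summed level ran from 18835 to 24516 normalised counts in Control and from 30881 to 44849 in BRG1 samples. FLG and IVL, which encode proteins of the upper epidermal layers, rose by 6.77 and 8.88 on the log2 scale (DESeq2 adjusted p 7.2e-88 and 2.0e-34), in samples in which A2ML1 was not higher. DSG1, a desmosomal cadherin gene, gave most of the Control sum and was not called (log2 fold change -0.28, DESeq2 adjusted p 0.390).

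For cell types known for A2M expression, 3 of 6 endothelial markers were called higher (summed level 1735 to 2641 in Control, 6425 to 6842 with BRG1), 1 of 6 hepatocyte markers (54.6 to 94.7 and 323 to 640) and 1 of 6 fibroblast markers (5245 to 8747 and 4274 to 9343). VWF, an endothelial clotting factor gene, rose by 6.26 on the log2 scale (DESeq2 adjusted p 5.7e-55), from 26.1 to 82.0 normalised counts in Control to 3224 to 3656. CDH5 and TEK were also called (log2 fold changes 7.82 and 0.97), and KDR (0.14), PECAM1 (0.83) and CLDN5 (0.80) were not. The called hepatocyte marker was APOA1, with 0.997 to 2.69 normalised counts in Control and 175 to 598 in BRG1 samples. ALB, with 45.3 to 70.9 and 23.8 to 86, was not called, nor were APOB and TF. Of 6 leukocyte markers 1 was called higher (1856 to 2866 and 2431 to 3931), LYZ, with 0 to 2.1 normalised counts in Control and 13.4 to 22.8 in BRG1 samples, and this call was lost without BRG1 replicate 2. PTPRC, the pan-leukocyte marker, had 336 to 722 normalised counts over all samples. CD68, a macrophage marker, had 1179 to 2522 in Control and 1929 to 3553 in BRG1 samples and was called higher only with the block (DESeq2 adjusted p 0.00132, edgeR adjusted p 0.0343) and without Control replicate 1. For CD68 and LYZ, 85.6% and 34.7% of exon bases are shared with other genes, so their values are uncertain. CD3E had 3 counts or fewer in every library. Of 6 granulosa markers 1 was called higher (291 to 470 and 639 to 921). That gene was CYP19A1, which encodes aromatase, with 15.3 to 31.7 normalised counts in Control and 251 to 455 in BRG1 samples (log2 fold change 3.76, DESeq2 adjusted p 8.7e-20). AMH had 227 to 398 and 340 to 455, INHA had 38.8 to 47.3 and 35.7 to 41.7, and neither was called. FOXL2, a defining gene of granulosa cells, had 3 counts or fewer in every library, and AMHR2 had 0. The part of these cell-type genes in the family's differences was not tested.

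The genes whose levels were most like a member's over the 6 samples were named by Pearson's r of log2(normalised count + 1), among 11685 genes with a mean of at least 100. The points are 2 groups of 3 samples, so a gene with a difference between groups scores high, and no test is attached. For A2M they were TNKS (r = 0.993), ZBTB8OS (0.992) and DGUOK (0.992), and for PZP they were COPS4 (0.999), PFN2 (0.991) and TXLNG (0.990). Their own log2 fold changes were small, from -0.32 to -0.20. A2M and PZP had an r of 0.958 with each other, rank 55 from the side of A2M and 64 from that of PZP. For CPAMD8 they were PHF8 (0.982), ATPAF1 (0.969) and B4GALNT3 (0.963), and its r with A2M was 0.022.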

How the data were processed

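Total RNA of 3 Control and 3 BRG1 samples of COV434 cells was made into unstranded libraries from 500 ng of RNA and sequenced as pairs of 78 bases. The authors aligned reads with STAR (2.5.3a) to GENCODE v24 (hg38), quantified transcripts with salmon (0.8.2) and used tximport to collapse them by gene. Each deposited value is an estimated count (lengthScaledTPM), not divided by library size, and salmon shares ambiguous reads between genes by a model. Versions of STAR and salmon follow the submitters' processing notes.

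Estimated counts were rounded and fitted with DESeq2 (1.42.0, R 4.3.3), which the study names, BRG1 against Control with no covariate, with Benjamini-Hochberg adjustment over all genes and a threshold of 0.05. The quasi-likelihood test of edgeR (4.0.16) and voom of limma (3.58.1) were alternatives. All 3 were tested on simulated data, where the share of false calls under DESeq2 exceeded the nominal level and that under edgeR was nearer, so edgeR results stand beside those of DESeq2. The simulated samples were drawn independently, with equal numbers of genes raised and lowered. Those shares therefore may not hold for the real samples, which deviated together by replicate number. Totals of 29699741 to 63613710 counts per sample set the counting error, and the replicates set the spread that the p-values measure. The series' design text calls the replicates biological. Samples with the same replicate number deviated together from their group means (r = 0.523, 0.524 and 0.614 over 11685 genes), so ratios are given within replicate numbers. The main fits had no block, so their SEs and adjusted p leave this pairing out. A fit with the number as a block is given where it changed a call.

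The 5 genes, the lists and the rule for named genes (all members, called listed genes with others of clear role, called neighbours, and the 3 genes most like each member with a mean of at least 100) were chosen with earlier results of these data known. Coordinates are from GENCODE release 44 (hg38), in which 18214 of 19899 table genes were matched by symbol. Promoters are from RefSeq (GRCh38.p14). A fold against a group whose libraries all held 3 counts or fewer was computed against 3 counts per library.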

Additional observations from a re-analysis of the deposited data

How the results depend on the processing

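Of 464 recomputed values over 13 alternatives, 445 stayed within 1.5 times the reported count or within the spread between replicates, and no called value changed sign. The A2M and PZP calls held in all of them, which reuse the samples on which the family was chosen. The A2ML1 call was made with the replicate block under DESeq2 and edgeR and without BRG1 replicate 3, and the block changed no other call among the 5 genes. The cause of the following changes was not tested. Over all genes, the 294 lower calls became 146 (edgeR), 169 (limma-voom), 1035 (DESeq2 replicate block) and 809 (edgeR replicate block). Leaving out 1 sample gave 596 (BRG1 replicate 3), 172 (BRG1 replicate 1), 166 (Control replicate 2), 161 (Control replicate 3), 133 (Control replicate 1) or 117 (BRG1 replicate 2). Acute-phase genes called higher (7) were 4 with the low-count filter, which tests fewer genes, and those called lower (0) were 1, LIFR (adjusted p 0.0304), with the DESeq2 replicate block, and 0 to 1 when 1 sample was left out (1, FGG, without BRG1 replicate 3). Leukocyte markers called higher (1) were 2 with either replicate block, 0 without BRG1 replicate 2 and 2 without Control replicate 1. Fibroblast markers called higher (1) were 2 without Control replicate 1, and granulosa markers (1) were 2 without Control replicate 3. KRT1, 1 of the 8 epithelial markers called, was lost without BRG1 replicate 1 or 2. The depth limits CD109, with at most 20 estimated counts in a library.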
